A study of Caenorhabditis elegans with 2 samples.

Results

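The 64 genes described here encode subunits and assembly factors of the 5 complexes of mitochondrial respiration in Caenorhabditis elegans. They are the nuclear protein-coding genes of the WBcel235 annotation whose names begin with nuo, ndua, ndub, nduc, nduf, ndus, nduv, sdha, sdhb, sdhc, sdhd, ucr, cox, atp, asb or asg, out of 19973 such genes in all. By name, 31 belong to complex I, 4 to complex II, 5 to complex III, 7 are subunits of complex IV, 8 are complex IV assembly factors, and 9 belong to complex V. The rule used the names alone and no measured value, but the set was chosen with earlier results of these data known.

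The experiment mapped where the zinc finger transcription factor LSY-2 sits on chromatin in whole L4 larvae. The worms were of strain OP367, genotype unc-119(tm4063) III; wgIs367, in which the integrated transgene wgIs367 supplies LSY-2 with GFP and FLAG tags at its C terminus. The sexes were pooled, chromatin was sheared by sonication, and the series held 1 group of 2 biological replicates, with the control alignment not analysed here. The deposited values are lists of peaks, each with a signal of unstated scale and a summit position. The main list held 5944 peaks that passed the irreproducible discovery rate (IDR) procedure, a filter on the agreement between peak lists. Passing it need not mean a strong peak in each of the 2 replicates. The signals ran from 59.9 to 19064.5. The depth of the libraries is unknown. In whole animals, binding in few cells and weak binding in many cells cannot be told apart.

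The respiratory chain passes electrons from NADH through complex I, or from succinate through complex II, by way of ubiquinone to complex III, cytochrome c and complex IV, which reduces oxygen. The proton gradient built on the way drives complex V, the ATP synthase. Most of the proteins are encoded in the nucleus and imported, and a few are encoded in mitochondrial DNA. Roles named below are those of the mammalian or yeast counterparts unless stated otherwise. LSY-2 itself is known from the ASE taste neurons, whose left and right cells it helps to make different.

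Sequences at LSY-2 summits upstream of 7 members are shown because they hold, or lack, the short words that the results turn on. Each line gives the gene, the ce11 position, the strand and 60 bases on either side of the summit, read 5′ to 3′ in the direction of the gene. Capitals mark the word TACGGTA (on the other strand TACCGTA), the word GAGAGA (on the other strand TCTCTC) and the word AGACGCAG (on the other strand CTGCGTCT).
cox-5A (chrIII:12905130-12905250, + strand): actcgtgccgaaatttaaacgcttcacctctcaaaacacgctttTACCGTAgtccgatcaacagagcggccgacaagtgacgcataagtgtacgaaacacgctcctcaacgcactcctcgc
ndub-8 (chrII:13872630-13872750, + strand): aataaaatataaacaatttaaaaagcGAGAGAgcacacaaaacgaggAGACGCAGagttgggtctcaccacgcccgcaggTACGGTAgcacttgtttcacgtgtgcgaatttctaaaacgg
cox-14 (chrIII:10218716-10218836, + strand): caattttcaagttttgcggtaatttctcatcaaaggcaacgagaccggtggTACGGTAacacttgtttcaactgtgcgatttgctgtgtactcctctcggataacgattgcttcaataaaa
cox-6B (chrIII:2785994-2786114, + strand): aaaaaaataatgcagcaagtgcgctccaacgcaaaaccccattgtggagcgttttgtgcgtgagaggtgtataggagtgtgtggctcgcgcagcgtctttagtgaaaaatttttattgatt
ucr-1 (chrIII:5591930-5592050, + strand): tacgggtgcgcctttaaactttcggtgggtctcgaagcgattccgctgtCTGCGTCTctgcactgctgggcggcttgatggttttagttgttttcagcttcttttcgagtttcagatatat
ucr-2.2 (chrX:15173643-15173763, + strand): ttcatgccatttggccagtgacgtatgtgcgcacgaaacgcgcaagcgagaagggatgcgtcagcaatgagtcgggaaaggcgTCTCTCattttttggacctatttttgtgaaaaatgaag
asb-2 (chrX:4469435-4469555, + strand): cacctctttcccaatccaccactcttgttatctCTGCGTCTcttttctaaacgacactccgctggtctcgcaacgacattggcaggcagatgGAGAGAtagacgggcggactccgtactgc
The summits of cox-5A, ndub-8 and cox-14 are among the 4 strongest of the members and hold TACGGTA. That of ndub-8 holds all 3 words within its 121 bases. That of cox-6B, which also falls in the window of nduc-2, holds none of them, and those of ucr-1, ucr-2.2 and asb-2 hold GAGAGA, AGACGCAG or both.

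LSY-2 summits lay at most respiratory genes. Of the 64 members, 46 (71.9%) had a summit between 1000 bp upstream and 200 bp downstream of a transcript 5′ end, whereas 3897 of all 19973 genes (19.5%) did. When each summit was given only to the gene with the nearest 5′ end, 33 members (51.6%) had one, beside 15.2% of all genes. Of the members, 19 (29.7%) had a summit among the 594 peaks of highest signal, at least 380.0, beside 3.89% of all genes. The median signal over the 46 members was 333.6, with quartiles of 151.3 and 570.0, and over all genes with a summit it was 170.1, with quartiles of 98.8 and 317.4. No test was made of these shares, which describe how the peaks fall on genes.

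The complexes differed in how many members carried a summit and in how strong those summits were. All 7 complex IV subunit genes and all 4 complex II genes had one, as did 8 of 9 complex V genes (88.9%), 4 of 5 complex III genes (80.0%) and 21 of 31 complex I genes (67.7%). The complex IV assembly factors had 2 of 8 (25.0%), close to the 19.5% of all genes, and 5 of 8 (62.5%) in the pooled list, where 35.1% of all genes did. The median signal over the genes with a summit was 909.3 among the complex IV subunits, where 5 of 7 genes had a summit in the strongest 594. The 2 assembly genes with a summit, at 4189.2 and 225.5, lay on either side of that. The median was 428.4 in complex V, 268.5 in complex III, 217.7 in complex I and 124.2 in complex II. The numbers per complex are small, and differences between complexes were not tested.

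**Figure D1:**
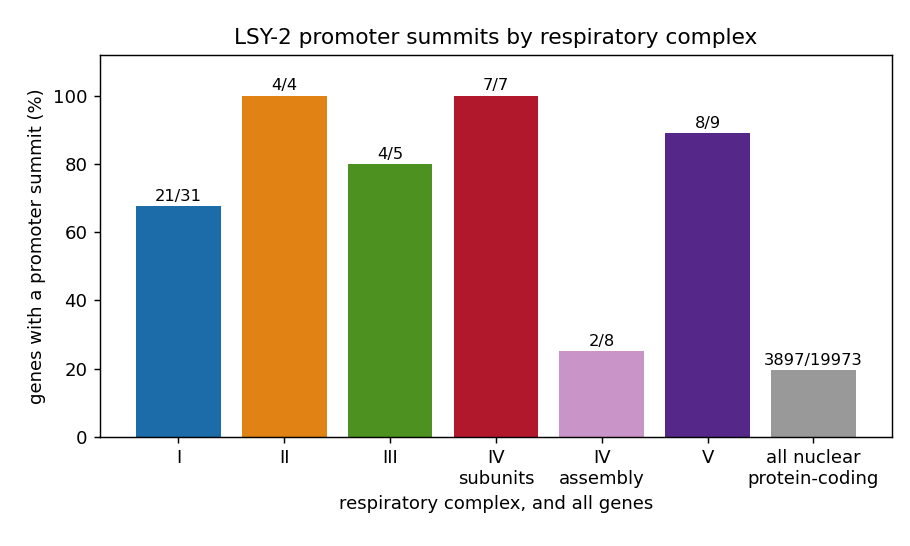
Percent of genes with an LSY-2 promoter summit (vertical axis) for each respiratory complex and, at the right in grey, for all nuclear protein-coding genes; the fraction above each bar gives genes with a summit over all genes. Complex IV assembly factors, at 2 of 8, are the bar nearest to the 3897 of 19973 of all genes.

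Complex I, the NADH dehydrogenase, had its strongest summit at ndub-8, which encodes an accessory subunit of the membrane arm. The summit, 179 bp upstream, reached 2970.4 in replicate 1 (rank 17) and 2243.0 in replicate 2 (rank 16). Next was nuo-1, the subunit that binds NADH and FMN, with 1272.3 in replicate 1 and 830.8 in replicate 2. The third, nduc-2, has its summit in common with cox-6B, at 1000.3 in replicate 1 and 779.8 in replicate 2, because it lies directly behind that gene. All of these were higher in replicate 1 and kept similar ranks in both. The lowest of complex I in the thresholded list was nuo-3, an accessory subunit, with 27.9 in replicate 1 (rank 8570) and 45.6 in replicate 2 (rank 3439). In replicate 2, nduf-7 and ndub-5 were lower.

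Both core and accessory subunits of complex I carried summits. Of the 7 core subunits, most of which hold the flavin or iron-sulphur clusters or bind quinone, 5 (71.4%) had one. Of the 24 accessory subunits 16 (66.7%) did, a difference that was not tested. In the strongest 594 peaks were 1 of 7 core (14.3%) and 7 of 24 accessory genes (29.2%). Besides nuo-1, the core genes with summits were ndus-8 (signal in the thresholded list 352.6), nuo-2 (249.3), nduf-2.2 (217.7) and nduf-7 (91.4). The summit of nduf-7 was matched at 60.5 in replicate 1 (rank 3590) and at 10.1 in replicate 2 (rank 19091). Each match was the nearest region within 200 bp, not the strongest, so the replicate 2 value may understate that summit. The core genes nuo-5 and nduv-2 had no summit in the thresholded list. Among the accessory genes, nduf-6 (887.5), ndua-8 (858.9), nduf-9 (572.2), nduf-11 (438.9) and nduv-3 (398.9) followed ndub-8 and nduc-2. The others, ndua-7, nuo-6, ndua-13, ndua-5, ndub-3, ndub-7, ndua-2, ndub-5 and nuo-3, lay between 65.4 and 186.0.

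Complex II, succinate dehydrogenase, had a summit at each of its 4 matched genes, and at 2 of 4 among the 2972 strongest peaks. The flavoprotein gene sdha-1 had 209.5 in replicate 1 and 199.7 in replicate 2, the highest of the complex. Its paralogue sdha-2 had 56.3 in replicate 1 and 37.4 in replicate 2. The sdha-1 values were above those of sdha-2 in both replicates. The iron-sulphur subunit gene sdhb-1 had 66.9 in replicate 1 and 31.5 in replicate 2, and sdhd-1, which encodes a membrane anchor, had 95.5 and 57.4. Only sdha-1 exceeded the all-gene median of 170.1 in the thresholded list, at 402.1. The remaining anchor subunit is encoded by mev-1, whose name falls outside the set, and its summit had a signal of 505.4.

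Complex III, the cytochrome bc1 complex, had moderate summits. The core protein genes ucr-2.2 and ucr-1 had 181.2 and 178.7 in replicate 1, and 154.3 and 150.3 in replicate 2. The core protein paralogue ucr-2.1 had 113.1 in replicate 1 and 95.5 in replicate 2. The order ucr-2.2, ucr-1, ucr-2.1 was the same in both replicates, although the leading pair differed by less than their replicates did. The third paralogue, ucr-2.3, had no summit in its window in the thresholded or the pooled list. The small subunit gene ucr-11 had the lowest signal of the members in the thresholded list, 64.4. It had 39.5 in replicate 1 and 30.1 in replicate 2, at a summit 109 bp inside the gene.

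Complex IV, cytochrome c oxidase, held the strongest summit of any member. At cox-5A the signal was 6937.0 in replicate 1 and 5387.1 in replicate 2, rank 3 in both, at a summit 301 bp upstream. The summit of cox-5B, 44 bp upstream, had 2242.1 in replicate 1 and 1629.9 in replicate 2, and that of cox-6B had 1000.3 and 779.8. All 3 encode nuclear subunits that surround the catalytic core, which mitochondrial DNA encodes. In the thresholded list cox-6C had 909.3, cox-4 had 380.6 and cox-6A had 221.2. The lowest, cox-7C, had 74.3 in replicate 1 and 29.9 in replicate 2.

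Of the complex IV assembly genes, cox-14 and cox-10 had summits. At cox-14, a small protein that in yeast and humans takes part in making the subunit COX1, the values were 2444.7 in replicate 1 and 1786.8 in replicate 2. The summit of cox-10, the enzyme that makes haem O, had 120.0 in replicate 1 and 107.9 in replicate 2. The cox-14 summit lay nearer to the 5′ end of rde-4, a double-stranded RNA-binding protein of RNA interference on the other strand. The haem A synthase gene cox-15, the copper delivery genes cox-11, cox-17 and cox-19, the membrane insertion gene cox-18 and cox-16 had none in the thresholded list.

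Complex V, the ATP synthase, had its strongest summit at atp-1, the catalytic-head alpha subunit, 7 bp upstream of the gene. Its signal was 2974.3 in replicate 1 and 2300.1 in replicate 2. Next came asg-1, subunit g of the membrane part, with 319.4 in replicate 1 and 246.7 in replicate 2, and atp-3, the stalk subunit OSCP, with 321.4 and 217.4. Between asg-1 and atp-3 the order differed between the replicates. The beta subunit gene atp-2 had 479.4 in the thresholded list, atp-4 had 208.8, and atp-5, the lowest, had 109.6 in replicate 1 and 45.5 in replicate 2. The paralogues differed by pair. Of the subunit b pair, asb-2 had 208.1 in replicate 1 and 166.1 in replicate 2, whereas asb-1, known as the germline form, had no summit in the thresholded or the pooled list. Both subunit g genes had summits, with asg-2 at 201.5 in replicate 1 and 173.7 in replicate 2, below asg-1 in each. The asg-1 summit, however, lay nearer to the 5′ end of mrps-15 on the other strand.

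**Figure D2:**
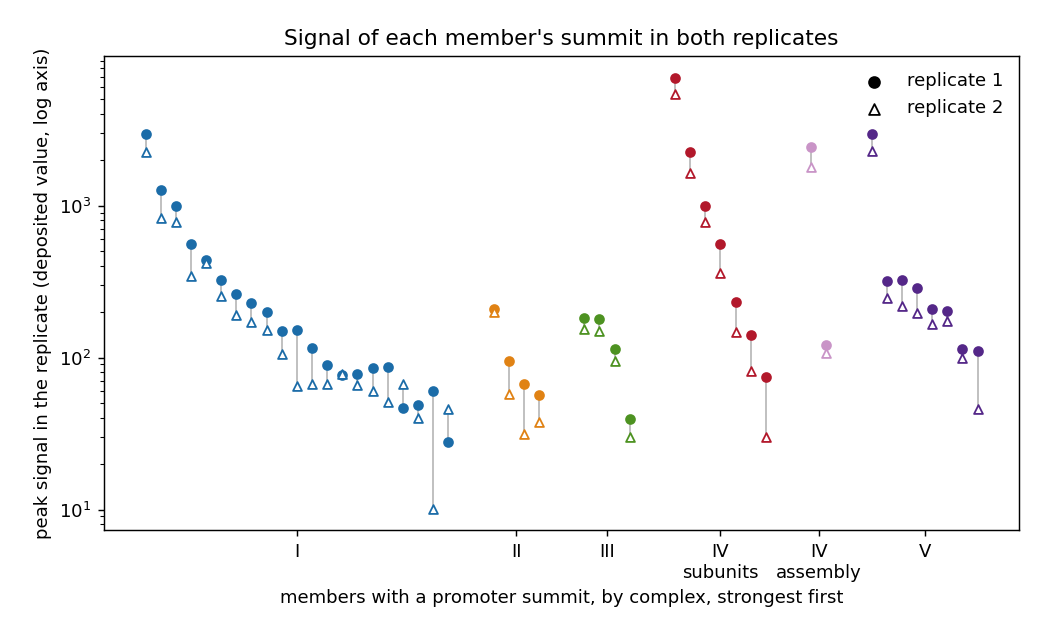
Deposited peak signal (vertical log axis) at the summit of each of the 46 members with a promoter summit, by complex and strongest first; filled circles are replicate 1, open triangles replicate 2, and grey lines join the same gene. Replicate 1 was higher for 43 of 46 members. The long line in complex I is nduf-7, whose nearest matched regions had 60.5 and 10.1.

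Each of the 45 distinct member summits was matched within 200 bp in both replicates. On the log2 scale, replicate 1 exceeded replicate 2 by a median of 0.41 ± 0.49 (SD over the 45 summits), within a range of -0.71 to 2.58. Over the 3292 of 3361 promoter summits of all genes that were matched, the median was 0.49 ± 0.56. Of the 46 members, 44 were among the 5944 strongest peaks of both replicates, and nduf-7 and nuo-3 were among those of 1. This count was not made over all genes. The thresholded peaks were the strongest of a list pooled from these replicates, so high ranks in both follow in part from that choice.

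The summits of most members lay upstream, at a median distance near that over all genes with a summit. The median position was 203 bp upstream of the nearest 5′ end of the gene, beside 226 bp over all genes with a summit. Of the 46, 44 were upstream and 37 fell between 100 and 500 bp upstream, counts that were not made over all genes. The window itself reaches 1000 bp upstream and only 200 bp downstream. The exceptions downstream were nuo-3, 4 bp inside, and ucr-11. The farthest upstream were nduf-2.2 at 862 bp, nduc-2 at 798 bp and cox-6A at 785 bp. Several summits lay in the windows of 3 members, and 10 members had more than 1 annotated 5′ end.

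Many of the summits fell in the windows of both a respiratory gene and a neighbour on the other strand, which need not place them between the 5′ ends. This held for 29 of the 46 members (63.0%), beside 42.6% of all genes with a summit, so a summit cannot be ascribed to the respiratory gene alone. The neighbours included rpl-36.A, a ribosomal protein gene, at nuo-1, and nars-1, an asparaginyl-tRNA synthetase gene, at nduf-6. Others were mrps-15, a mitochondrial ribosomal protein gene, at asg-1, ddx-15 at ucr-1, mcrs-1 at atp-1 and cup-14 at ndub-8. Among the members with a summit in the strongest 594 peaks, those with no such neighbour were cox-5A, cox-5B, cox-4, nduf-9, nduf-11 and sdha-1. For nduc-2, ndua-8, nduv-3, nduf-2.2, ndub-3, ndub-7, ndub-5, ucr-2.1, cox-6B, cox-7C, cox-14, asg-1 and atp-5, the summit lay nearer to another gene's 5′ end.

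**Figure D3:**
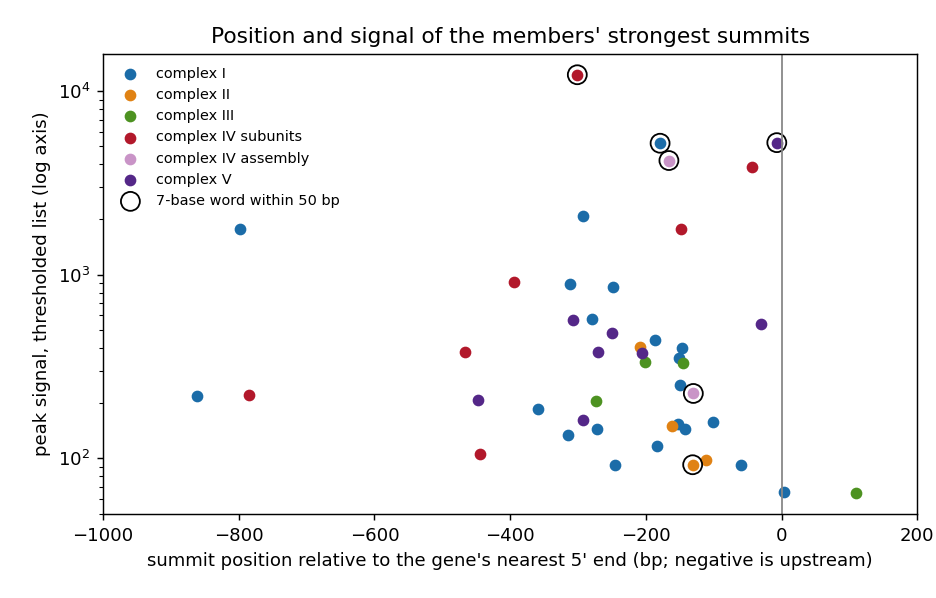
Peak signal in the thresholded list (vertical log axis) against the position of each member's strongest summit relative to its nearest 5′ end (horizontal axis, bp, negative upstream), coloured by complex. Black rings mark the 6 summits with the 7-base word within 50 bp, which include the 4 strongest members.

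A 7-base word lay at the 4 strongest member summits. TACGGTA, searched on both strands within 50 bp of the summit, lay at 6 of the 45 member summits (13.3%), beside 5.89% of all 3361 promoter summits. The word was picked after the sequences and signals had been seen, so its place among the members is a description. The 6 were cox-5A, atp-1, ndub-8 and cox-14, which are the 4 members of highest signal, and cox-10 and sdha-2, which had 225.5 and 92.2. The highest member signal without the word was 3856.0, at cox-5B. The word centre lay from 4 to 44 bp from the summit. Of the 6 member summits that ranked 1 to 100 in the thresholded list, 4 (66.7%) held it, and of the 91 other promoter summits of those ranks 49 (53.8%) did. At ranks 101 to 594 it was at none of 12 member summits and at 36 of 397 others (9.07%). At ranks 595 to 5944 it was at 2 of 27 (7.41%) and 107 of 2828 (3.78%). The word therefore went with high rank in other promoters also, and nothing here makes it particular to respiratory genes. It occurs at 15083 places in the 6 chromosomes. At ndub-8 and cox-14 the printed sequences also share the bases cacttgtttca, which begin after 1 further base.

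**Figure D4:**
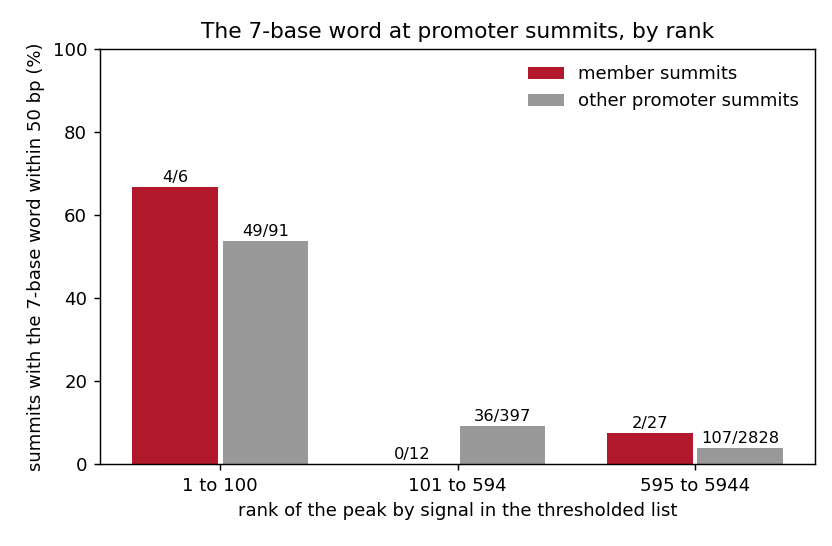
Percent of promoter summits with the 7-base word within 50 bp (vertical axis) in 3 classes of peak rank (horizontal axis), for member summits (red) and all other promoter summits (grey); fractions give summits with the word over all summits of the class. Both sets are highest at ranks 1 to 100, at 4 of 6 and 49 of 91.

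The other 2 words, picked with earlier results of these data known, lay at somewhat smaller shares of the member summits than of all promoter summits. The counts are small and the differences were not tested. Within 100 bp, GAGAGA was at 9 members and AGACGCAG at 3, with no share counted over all promoter summits. GAGAGA was within 50 bp of 7 of 45 member summits (15.6%), beside 23.1% of promoter summits, and AGACGCAG at 3 (6.67%), beside 9.91%. GAGAGA was at ndub-8, ndub-5, nduf-7, sdha-1, sdhd-1, ucr-2.2 and asb-2, and AGACGCAG at ndub-8, ucr-1 and asb-2. The median GC content in the same windows was 48.5% at the member summits and 44.6% at all promoter summits, and median peak width was 275 bp and 328 bp. A word match is not evidence that a protein binds it.

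The 18 members without a thresholded summit fell into those with a summit in the pooled list and those with none. Of these, 8 had a summit in the pooled list of 30000 peaks and background regions, where a region need not be a peak. In that list 84.4% of all members and 35.1% of all genes had a summit. The ranks of the 8 ran from 6137 at ndub-6 to 21448 at ndub-2, and that of cox-11 had no match in replicate 1. The signals were 58.1 at ndub-6, 43.0 at ndub-11, 39.3 at cox-18, 28.5 at ndub-10, 25.7 at cox-17, 24.4 at ndua-12, 23.3 at cox-11 and 16.4 at ndub-2. Just inside the threshold were ucr-11 at 64.4 and nuo-3 at 65.4, and just outside was ndub-6, so that these 3 genes are separated by little. The other 10 had none in either list. They were nduf-5, nuo-4, nuo-5, nduv-2 and ndua-1 of complex I, ucr-2.3 of complex III, cox-15, cox-16 and cox-19 of the assembly factors, and asb-1 of complex V.

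Summits were absent more often at members that lie close behind another gene, although 9 of the 18 members without one do not. Many C. elegans genes are transcribed in operons from a promoter ahead of the first gene, and trans-splicing then separates the messages. Operons are not marked in the annotation used, so a gene was called tandem here when a gene on the same strand ended at most 200 bp upstream of it, or overlapped it by at most 50 bp. This definition was made after the values had been seen. Of 13 tandem members, 4 (30.8%) had a summit, beside 13.8% of all tandem genes. Of the 51 other members, 42 (82.4%) did, beside 20.2% of all genes that are not tandem. With a gap of up to 500 bp, 9 of 20 tandem members (45.0%) had one, beside 16.2% of all such genes. At the gap of up to 200 bp, the tandem members with a summit were nduc-2, nuo-2, ucr-11 and atp-4.

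The first gene of the run often had a summit where the tandem member had none. This was so for 7 of the 9 tandem members without a summit (77.8%), beside 42.8% of all tandem genes without one. The complex I gene nuo-5 lies 104 bp behind Y45G12B.2, whose summit had a signal of 2744.4, and cox-18 lies 110 bp behind Y55F3AR.2, with 8787.0. The exosome gene exos-3, ahead of ndub-10, had 1612.3. All 3 lie above 570.0, the upper quartile of the members' own summits. In longer runs, syf-2 ahead of nuo-4 had 703.5, and ooc-5 ahead of ndub-2 had 678.8. The weak ones were cchl-1, a haem lyase gene ahead of cox-15, at 89.9, and ubc-20 ahead of cox-17, at 79.5. The genes ahead of cox-11 and cox-19 had no summit. Whether the runs are transcribed together was not tested.

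The bases between the gene ahead and the member are shown for ndub-2 and cox-18 as examples of the 9 tandem members whose window held no thresholded summit. Both read 5′ to 3′ in the direction of the member on ce11.
ndub-2 gap (chrII:8996270-8996363, + strand): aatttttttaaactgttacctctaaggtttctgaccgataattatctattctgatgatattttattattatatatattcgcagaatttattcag
cox-18 gap (chrIV:1097343-1097452, + strand): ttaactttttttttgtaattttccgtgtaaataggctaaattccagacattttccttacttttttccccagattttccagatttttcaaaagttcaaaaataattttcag
Neither gap holds any of the 3 words on either strand, and both end in the bases ttcag directly before the annotated start of the member.

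**Figure D5:**
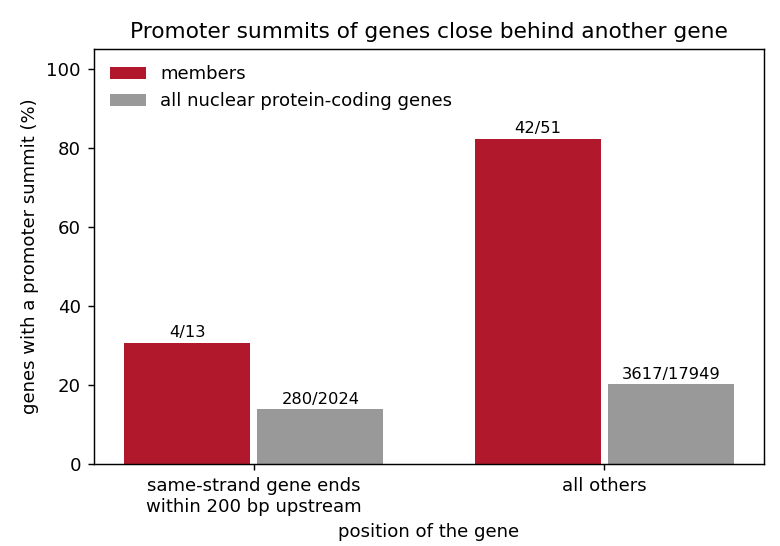
Percent of genes with a promoter summit (vertical axis) among genes close behind a same-strand gene and among all others (horizontal axis), for the members (red) and all nuclear protein-coding genes (grey). Members reach 4 of 13 when tandem and 42 of 51 otherwise, and all genes 280 of 2024 and 3617 of 17949.

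Assembly genes had summits less often (25.0%) than the other members (78.6%), though not less often than all genes (19.5%). The lower share than in the other members coincided with their position. Of the 8 assembly genes 5 were tandem, of which none had a summit, while 2 of the 3 that were not tandem did (66.7%). Among the 56 members other than assembly genes, 4 of 8 tandem genes and 40 of 48 others (83.3%) had a summit. Over all genes the shares were 13.8% of tandem genes and 20.2% of the others. Role and position cannot be told apart with so few genes.

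By chromosome, the members had summits more often than all genes of the same chromosome in each case. The counts were 15 of 18 on chromosome I (83.3%, beside 28.6% of all its genes), 9 of 11 on II (81.8%, beside 19.7%) and 11 of 15 on III (73.3%, beside 31.7%). They were 4 of 9 on IV (44.4%, beside 18.5%), 2 of 6 on V (33.3%, beside 11.3%) and 5 of 5 on X, beside 14.1%. The 5 on X were sdha-1, ucr-2.1, ucr-2.2, asb-2 and asg-2, of which each has a paralogue among the members. Of those paralogues elsewhere, sdha-2 and asg-1 on chromosome I had summits, whereas asb-1 and ucr-2.3 on chromosome III had none.

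A list of 28 respiratory genes whose names the set does not match also often carried summits. The list was drawn up with earlier results of these data known and need not be complete. Of the 28, 17 (60.7%) had a summit, beside 19.5% of all genes. Among the 2972 strongest peaks 9 (32.1%) had one, beside 13.4%. Their median signal was 140.0, below the 170.1 of all genes with a summit. The highest was ant-1.1, the ADP/ATP carrier, at 2907.3, followed by sco-1, a copper chaperone of complex IV, at 864.2. The cytochrome c1 gene cyc-1 had 525.5, mev-1 of complex II had 505.4 and cyc-2.1, a cytochrome c gene, had 371.8. Lower were the ATP synthase epsilon subunit gene hpo-18 at 222.8, the ATP synthase inhibitor gene mai-2 at 215.5, the complex I assembly gene nuaf-1 at 156.1 and the Rieske protein gene isp-1 at 140.0. The others with a summit, mai-1, ant-1.2, cchl-1, lpd-5, coq-1, coq-3, coq-4 and coq-5, were between 72.2 and 110.5. No summit was found at gas-1, nuaf-3, cyc-2.2, bcs-1, sft-1, ant-1.3, ant-1.4, clk-1, coq-2, coq-6 or coq-8. The complex I paralogues nduf-2.2 and gas-1 thus differed, with a summit at nduf-2.2 of 151.7 in replicate 1 and 64.9 in replicate 2 that lay nearer to dlc-1. Of 5 genes for the maintenance and transcription of mitochondrial DNA (hmg-5, polg-1, rpom-1, twnk-1 and mtss-1), 1 (20.0%) had a summit, beside 19.5% of all genes. It was mtss-1, a single-stranded DNA-binding protein gene, at 131.8. In the pooled list 4 of the 5 (80.0%) had one, beside 35.1%.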

How the data were processed

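The authors deposited peak lists on ce10 and ce11, made from alignments and a control alignment per the deposited notes. Which aligner, peak caller and IDR threshold they used is not given in the sources used. The ce11 lists were used: 30000 regions for each of 2 replicates, 30000 pooled, and 5944 thresholded peaks, which were the strongest 5944 of the pooled list. The deposited signal, of unstated scale, was used within a list and, between replicates, as a log2 difference computed here. The deposited -log10 q-value was 4.2 for every thresholded peak and was not used further. The deposited summit position is counted from the peak start.

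Genes came from Ensembl release 115 of WBcel235, the ce11 sequence, and letters from the RefSeq genome of the same build, with no mitochondrial genes. A gene had a summit when one fell from 1000 bp upstream to 200 bp downstream of any transcript 5′ end, and the strongest was reported. Complexes were assigned by name. Values per replicate were given for the 3 strongest and the weakest gene of each complex, all complex II genes and the paralogue pairs. The members and lists were chosen with earlier results of these data known, so no test was made. Words were searched within 50 bp of summits on both strands. On simulated data, 200 of 200 planted summits were assigned to their gene. Python 3.11.15, numpy 2.4.6, pandas 2.3.3 and matplotlib 3.10.9 were used. Peak lists hold no read counts, so no counting interval could be given.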

Additional observations from a re-analysis of the deposited data

How the results depend on the processing

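The members with a summit numbered 39 of 64 among the 2972 strongest thresholded peaks (13.4% of all genes) and 54 in the pooled list (35.1%). They numbered 43 with 500 bp upstream (16.1%), 49 with 2000 bp (23.9%) and 46 by the whole peak interval (20.3%). With either replicate left out and the 5944 strongest peaks of the other used, 46 to 47 members had a summit (19.7% of all genes). Of 91 alternative values, 85 stayed within 1.5 times and 6 did not. This tally takes no account of the share over all genes, which also moves with the setting. Among those 2972, complex II fell to 2 of 4 genes and the listed respiratory genes outside the set to 9 of 28, beside 13.4% of all genes. In the pooled list, the assembly factors reached 5 of 8 and the mitochondrial DNA genes 4 of 5, beside 35.1% of all genes. By the nearest 5′ end only, 1 of 8 assembly factors had a summit, beside 15.2% of all genes. With a gap of up to 500 bp, an alternative added after seeing the data, tandem members with a summit were 9 of 20, beside 16.2% of all such genes. The statements on assembly factors rest on few genes and on the threshold, and the cause of these shifts was not tested. TACGGTA was at 6 member summits within 50 and within 100 bp, both added after seeing the data.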

Other observations

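Longer words shared by several member summits were counted after the values had been seen, within 100 bp of the summit on both strands, and are given without a test. Among the 35 words of 9 bases found at 5 or more member summits, CGATTTACG lay at 6 (13.3%), those of cox-5B, cox-4, ndua-8, ucr-1, cox-5A and nuo-3, beside 67 of all promoter summits (1.99%). The word CCGTAAATC, whose reverse complement overlaps it, lay at those of cox-5B, cox-4, sdhb-1, cox-10, ndua-8 and ucr-1, beside 1.73%. GAAACGCGC lay at those of nuo-2, nduf-11, ndus-8, nduv-3, sdha-1 and ucr-2.2, beside 1.7%. AACGACACT lay at those of nuo-6, ndub-7, nuo-1, ndua-5 and asb-2, beside 1.81%. The last 2 words, at 6 and 5 of the 45 member summits, had no gene in common. With so few summits, and no such count over all promoter summits, this does not mark separate groups. Among words of 6 bases within 50 bp, AAGGCG had the highest ratio of the 32 words at 9 or more member summits. It lay at 11 of 45 (24.4%), such as nuo-1, ndua-8 and asg-1, beside 6.84% of promoter summits. With so many words compared, some unequal shares arise in any set of this size.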
